A study of Homo sapiens with 4 samples.

Results

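The genes described here encode the ligand TRAIL (TNFSF10), 6 cell surface receptors that carry death signals or are relatives of such receptors (TNFRSF10A, TNFRSF10B, TNFRSF10D, FAS, TNFRSF1A and TNFRSF12A), and 3 proteins that relay or restrain the signal inside the cell (FADD, CASP8 and CFLAR). They were taken as every probe set of the array with exactly 1 gene symbol that is one of these 10, which gave 37 of 41091 probe sets with 1 symbol and 10 of 19775 genes. HepG2 cells, a line from a human liver cancer, were starved of serum and then given 200 ng/ml APRIL, itself a soluble cytokine related to tumour necrosis factor. The series' design text gives 24 h of starvation and the labels' protocol gives overnight. Total RNA was hybridized to Affymetrix U133 Plus 2.0 arrays, 1 array each at 0 h (untreated), 2 h, 6 h and 12 h. No untreated culture of the later times and no replicate was used here, so an effect of time alone and variation between cultures cannot be told apart from the treatment.

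Death receptors are trimeric surface proteins whose ligands draw them together. Their intracellular death domains then recruit the adaptor FADD, which gathers caspase-8 (CASP8) into a complex where it becomes active and cleaves the executioner caspases, while the caspase-like protein FLIP (CFLAR) competes for the same complex. Hepatocytes are known for their sensitivity to Fas, and in them the caspase-8 signal is relayed to mitochondria through BID.

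Promoter sequences are shown for 3 genes with different time courses: the ligand TNFSF10 and the receptor FAS, which were both highest on the 6 h array, and the receptor TNFRSF1A, which was highest on the 12 h array. Of the 10 genes, 6 matched the RefSeq promoter table (GRCh38.p14), and where that table gives several starts (3 for FAS) the first was used. The 250 bases before the annotated start are given 5′ to 3′ on the gene's own strand, and capitals mark the motif matches described below.
TNFSF10, chr3:172523431-172523680, minus strand: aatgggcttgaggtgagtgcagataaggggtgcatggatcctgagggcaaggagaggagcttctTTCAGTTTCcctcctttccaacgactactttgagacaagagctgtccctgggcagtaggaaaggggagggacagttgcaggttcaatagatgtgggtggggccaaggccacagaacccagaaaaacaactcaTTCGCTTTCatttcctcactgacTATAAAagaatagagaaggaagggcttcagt
FAS, chr10:88990548-88990797, plus strand: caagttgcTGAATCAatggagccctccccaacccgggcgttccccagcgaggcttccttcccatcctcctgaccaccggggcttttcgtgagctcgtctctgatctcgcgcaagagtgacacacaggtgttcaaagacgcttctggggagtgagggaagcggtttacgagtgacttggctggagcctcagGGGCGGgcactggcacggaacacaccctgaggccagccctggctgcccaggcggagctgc
TNFRSF1A, chr12:6342077-6342326, minus strand: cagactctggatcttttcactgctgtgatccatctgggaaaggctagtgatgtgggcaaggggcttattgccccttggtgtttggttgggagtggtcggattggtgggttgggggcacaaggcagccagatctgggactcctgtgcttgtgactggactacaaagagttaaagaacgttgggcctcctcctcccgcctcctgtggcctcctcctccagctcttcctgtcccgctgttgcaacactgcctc

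Letters were searched on both strands, with N as any base. They were TGANTCA as a loose form of the AP-1 motif, the kB core GGANNTTCC, the GC box GGGCGG and the TATA box TATAAA. Also searched were the forkhead motif TGTTTAC, the EGR motif GCGNGGGCG and the core of the interferon response element GAAANNGAA. The TNFSF10 promoter held a TATA box 31 bases before the start, which 10.7% of 35116 promoters hold somewhere in this window, and 2 interferon response cores, the first bases of which lay 186 and 54 bases before it (6.88% of promoters hold 1 or more). The FAS promoter held a match to the loose AP-1 form 242 bases before the start, with A at the open position. This loose form is in 6.57% of promoters. It also held a GC box 60 bases before the start (42.6%). None of the 7 motifs was found in the TNFRSF1A window. A match is a run of letters and no measurement of binding.

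The deposited values are log2 values centred on each probe set's own median over the 4 arrays, so they give differences between arrays and no expression level. The identity of the cells, and which of these genes is more abundant, could therefore not be read from them. A gene's value is the median over its probe sets. As yardsticks, the SD of the log2 ratio over all 19775 genes was 0.19 at 2 h over 0 h, 0.24 at 6 h over 0 h and 0.35 at 12 h over 0 h, and the spread between a gene's own probe sets is given where there are several. Neither measures variation between cultures, and with 1 array per time there is no test. The 10 genes were chosen on function with the ratios of these same arrays known, so all their values are a description. The 18 probe sets for bacterial RNAs added at hybridization gave, over the 0 h array, median log2 ratios of 0.01 (2 h), 0.06 (6 h) and -0.35 (12 h). The log2 ratio of the 3′ over the 5′ control probe set, a sign of RNA integrity, differed from the 0 h array by -0.24, 0.38 and 0.03 for ACTB and by -0.03, 0.05 and -0.05 for GAPDH at 2, 6 and 12 h. Hepatocyte markers (7 of 8 read) and immune cell markers (4 of 6 read) held no gene past 1.5-fold in any comparison. Of 6 fibroblast markers, PDGFRB alone passed 1.5-fold, with -0.74 at 6 h over 2 h, 0.89 at 12 h over 0 h and 1.39 at 12 h over 6 h. The part of any of these in the results below was not tested.

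At 2 h and at 6 h none of the 10 genes was past 2-fold or past 1.5-fold of the 0 h array in either direction. Of all genes at 2 h, 0.0354% were 2-fold or more above the 0 h array and 0.0101% as far below it, or 0.308% and 0.344% with a limit of 1.5-fold. At 6 h these shares were 0.101% and 0.283% for 2-fold, and 1.15% and 1.64% for 1.5-fold. At 12 h over 0 h, TNFRSF12A was past 2-fold higher and TNFSF10 past 2-fold lower, against 0.946% and 0.986% of all genes. With 1.5-fold as the limit, 3 of the 10 were higher (TNFRSF12A, TNFRSF10D and TNFRSF1A) and TNFSF10 was again the only one lower, against 4.46% and 3.7% of all genes. The median log2 ratio of the 10 genes was 0.12 at 2 h, 0.13 at 6 h and 0.40 at 12 h, beside 0.02, 0.05 and 0.01 for all genes. The spread among the 10 was wide at 12 h, between -1.57 and 1.42.

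**Figure D1:**
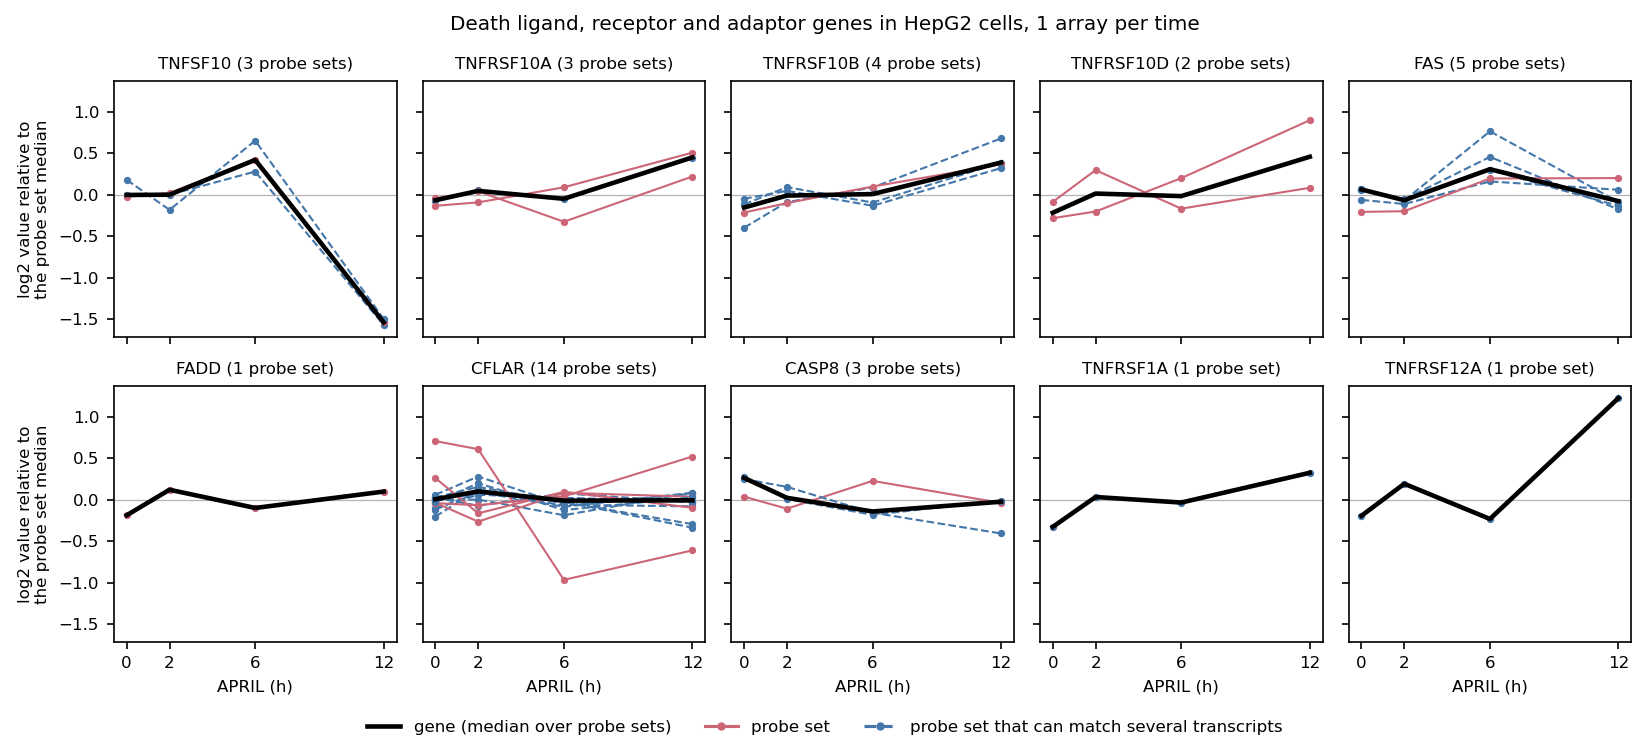
Log2 value of each probe set relative to its own median (y axis) against hours of APRIL treatment (x axis), 1 panel per gene and 1 array per time; the black line is the gene's value, the median over its probe sets, less its own median over the 4 arrays. TNFSF10 drops to -1.54 on the 12 h array, TNFRSF12A reaches 1.23 there, and 1 CFLAR probe set lies apart from the others on every array.

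TRAIL, encoded by TNFSF10, is a ligand that triggers death through TNFRSF10A and TNFRSF10B. All 3 of its probe sets were slightly higher at 6 h and far lower at 12 h. They differed at 2 h, where only 214329_x_at was below its 0 h value. Probe set 202688_at had log2 values of -0.02, 0.02, 0.42 and -1.54 at 0, 2, 6 and 12 h. Probe set 202687_s_at had 0.00, 0.00, 0.28 and -1.57, and 214329_x_at had 0.18, -0.18, 0.65 and -1.50. The 12 h array was the lowest and the 6 h array the highest in each.

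The log2 ratio of TNFSF10 was 0.00 at 2 h (SD 0.22 over 3 probe sets), 0.44 at 6 h (SD 0.10) and -1.57 at 12 h over 0 h (SD 0.08), which is 2.97-fold lower at 12 h. That places it as the gene with rank 42 from the lowest among 19775 at 12 h. Over the 6 h array the 12 h ratio was -1.96 (SD 0.15), 3.89-fold lower and rank 14 from the lowest. The step from 2 h to 6 h was 0.40 (SD 0.29), with 0.83 from 214329_x_at and 0.28 from 202687_s_at. The probe set that is not named as matching several transcripts, 202688_at, gave -1.52 at 12 h over 0 h. At 6 h, 96.6% of all genes had a lower ratio than TNFSF10, although it did not reach 1.5-fold. In bulk RNA, fewer cells with a transcript and less of it per cell cannot be told apart.

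TNFSF10 had the widest range over the 4 arrays of the 10 genes, 1.96 on the log2 scale. The 3 genes whose 4 values lay closest to it, by Euclidean distance over the 4 arrays, were AP1M2, a clathrin adaptor subunit of epithelial cells, at 0.155, SMIM24, a small membrane protein, at 0.166, and ZWINT, a kinetochore protein, at 0.168. The median distance of the other 19774 genes was 1.60. At 12 h over 0 h the log2 ratio was -1.38 for AP1M2, -1.54 for SMIM24 and -1.64 for ZWINT, the first from 2 probe sets and the others from 1 each. The 3 were picked as the closest, so their short distances and low 12 h ratios follow from that choice. With 4 arrays many profiles can lie close together, so the likeness is a description.

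The 3 receptors for TRAIL among the 10 genes had the opposite direction at 12 h. TNFRSF10A (DR4) and TNFRSF10B (DR5) carry death domains, and TNFRSF10D is a decoy with a truncated one. In the RefSeq annotation, TNFRSF10B, TNFRSF10C, TNFRSF10D and TNFRSF10A follow one another as protein-coding genes on chromosome 8. All 9 probe sets of TNFRSF10A, TNFRSF10B and TNFRSF10D were higher at 12 h than at 0 h. Their log2 ratios ran from 0.17 to 1.18 with a median of 0.52, beside a median of 0.01 for all genes. The 12 h array was the highest of the 4 in 8 of the 9. Over all probe sets with 1 symbol the 12 h array was highest in 29.6%.

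For TNFRSF10B, probe set 1556645_s_at had log2 values of -0.40, -0.09, 0.09 and 0.68 at 0, 2, 6 and 12 h, the widest course among its 4 probe sets. Probe set 209295_at had -0.21, -0.10, 0.10 and 0.37, and 209294_x_at had -0.12, 0.09, -0.09 and 0.39. The fourth, 210405_x_at, had -0.05, 0.05, -0.13 and 0.32. All 4 were lower at 0 h than at 2 h and higher at 12 h than at every earlier time, while the 6 h array lay above 2 h in 2 and below it in 2. The gene's log2 ratio was 0.16 at 2 h (SD 0.10), 0.17 at 6 h (SD 0.26) and 0.54 at 12 h over 0 h (SD 0.31 over 4 probe sets), or 1.46-fold. Its single probe set past 2-fold was 1556645_s_at, at 1.08, where 1.56% of all probe sets were past 2-fold higher.

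TNFRSF10A stayed close to its 0 h value at 2 h and 6 h and was higher at 12 h. Probe set 1552648_a_at had log2 values of -0.07, 0.05, -0.05 and 0.45 at 0, 2, 6 and 12 h, 231775_at had -0.04, 0.04, -0.32 and 0.22, and 241371_at had -0.13, -0.09, 0.09 and 0.51. The 12 h array was highest in all 3, and 231775_at was the only one with its lowest value at 6 h. The gene's ratio was 0.08 at 2 h (SD 0.04), 0.02 at 6 h (SD 0.25) and 0.52 at 12 h over 0 h (SD 0.19 over 3 probe sets), or 1.43-fold, and 0.50 at 12 h over 6 h (SD 0.06).

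TNFRSF10D was read by 2 probe sets that gave different sizes. Probe set 227345_at had log2 values of -0.28, -0.20, 0.20 and 0.90 at 0, 2, 6 and 12 h, and 210654_at had -0.08, 0.30, -0.17 and 0.08. The first gave 1.18 at 12 h over 0 h and the second 0.17, where the 2 h array was highest. The gene's ratio of 0.68 at 12 h (SD 0.72 over 2 probe sets) is therefore an average of readings that share a sign and no size, and its call past 1.5-fold rests on 227345_at. The related decoy receptor TNFRSF10C, not among the 10 genes, had a log2 ratio of 0.13 at 12 h over 0 h (SD 0.25 over 4 probe sets, 3 above 0).

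TNFRSF12A, the receptor for TWEAK known as Fn14, has no death domain and signals through TRAF adaptors. It had the highest 12 h ratio of the 10 genes. Its single probe set, 218368_s_at, had log2 values of -0.19, 0.19, -0.23 and 1.23 at 0, 2, 6 and 12 h. The 12 h value stood alone, with the other 3 arrays within 0.42 of one another. The log2 ratio was 0.39 at 2 h, -0.04 at 6 h and 1.42 at 12 h over 0 h, or 2.67-fold, which is rank 46 from the highest of 19775. Over 6 h it was 1.46, or 2.75-fold and rank 39. At 2 h, 98.1% of genes had a lower ratio than TNFRSF12A. The name of the probe set marks it as able to match several transcripts, and no second probe set is there to check it.

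TNFRSF1A, the type 1 receptor for tumour necrosis factor, recruits TRADD through its death domain. Its single probe set, 207643_s_at, had log2 values of -0.33, 0.03, -0.03 and 0.33 at 0, 2, 6 and 12 h. It was lowest at 0 h and highest at 12 h, with 2 h and 6 h close together between them. The log2 ratio was 0.36 at 2 h, 0.29 at 6 h and 0.65 at 12 h over 0 h, or 1.57-fold. At 2 h its ratio exceeded that of 97.5% of all genes. Taken with TNFRSF12A and the 3 TRAIL receptors, 11 of 11 probe sets of these 5 receptors were above 0 at 12 h over 0 h, 10 had their highest value at 12 h and 5 were past 1.5-fold, as were 6.54% of all probe sets with 1 symbol. The 5 genes were grouped after their values were seen, which fixes this direction.

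**Figure D2:**
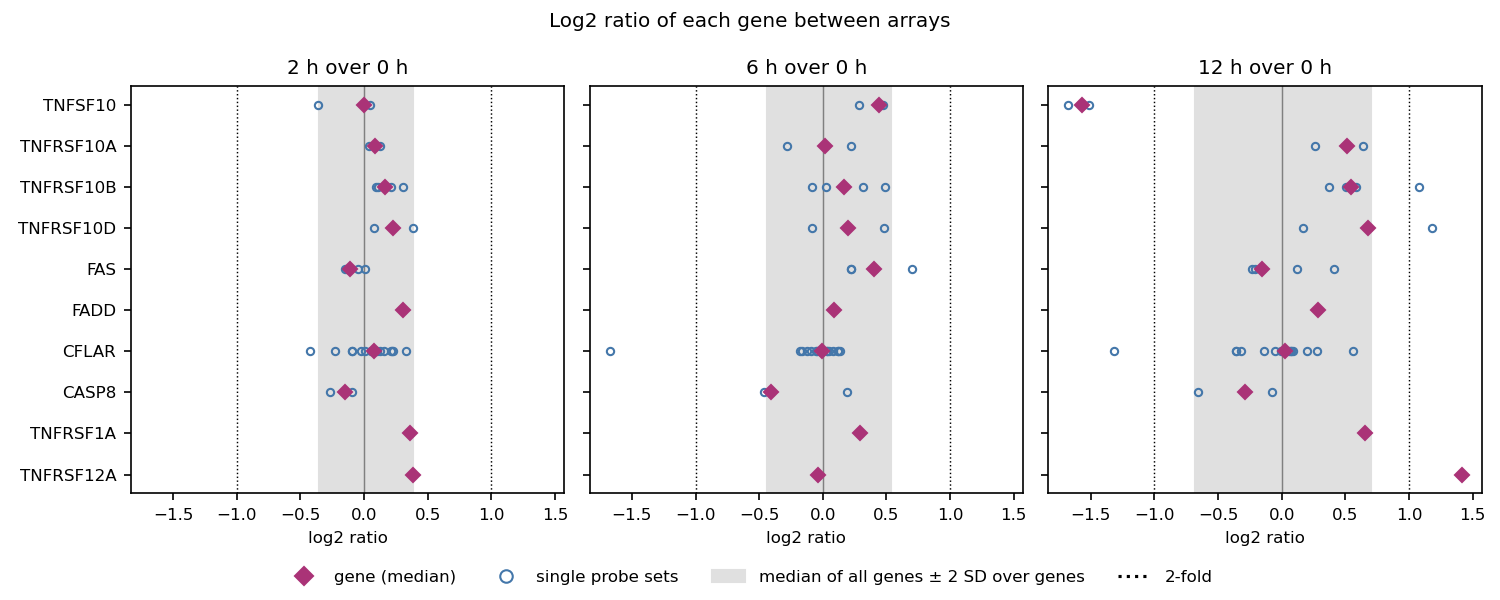
Log2 ratio over the 0 h array (x axis) of each of the 10 genes (rows) at 2, 6 and 12 h; diamonds are genes, open circles single probe sets, the grey band is the median of all 19775 genes ± 2 SD over genes, and dotted lines mark 2-fold. At 12 h TNFSF10 (-1.57) and TNFRSF12A (1.42) lie outside the band, and the other receptors except FAS lie between 0.52 and 0.68.

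FAS, the receptor for Fas ligand and a potent death receptor of hepatocytes, shared the 12 h direction of the other receptors in only 2 of its 5 probe sets. Its highest array was 6 h in 4 of 5 probe sets, against 28.6% of all probe sets with 1 symbol. Probe set 204781_s_at had log2 values of 0.07, -0.07, 0.77 and -0.09 at 0, 2, 6 and 12 h, and 204780_s_at had 0.05, -0.05, 0.46 and -0.18. Probe set 215719_x_at had 0.07, -0.07, 0.30 and -0.13. These 3 lay close to 0 except at 6 h.

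The other FAS probe sets ran differently. Probe set 216252_x_at had -0.06, -0.11, 0.16 and 0.06 at 0, 2, 6 and 12 h, and 233820_at had -0.21, -0.20, 0.20 and 0.20, with 6 h and 12 h alike. The gene's log2 ratio was -0.11 at 2 h (SD 0.07), 0.40 at 6 h (SD 0.19) and -0.15 at 12 h over 0 h (SD 0.27 over 5 probe sets). All 5 probe sets were above 0 at 6 h, by 0.22 to 0.70, and 95.4% of genes had a lower ratio. At 12 h, 3 were below 0 and 2 above, so FAS had no settled direction there. Probe set 233820_at, the only one not named as matching several transcripts, gave 0.41 at 12 h over 0 h and 0.00 over 6 h. TNFSF10 and FAS had close ratios at 6 h (0.44 and 0.40) and separated at 12 h (-1.57 and -0.15). The 6 h array was also the one with the largest ACTB 3′ over 5′ difference, and its part in these ratios was not tested.

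FADD, the adaptor that joins Fas and the TRAIL receptors to caspase-8, was read by 1 probe set, 202535_at. Its log2 values were -0.19, 0.12, -0.10 and 0.10 at 0, 2, 6 and 12 h. The ratio over 0 h was 0.31 at 2 h, 0.09 at 6 h and 0.29 at 12 h, with the 0 h array lowest. It did not reach 1.5-fold at any time.

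CASP8, the initiator caspase, lay on the lower side at 2 h and 12 h, with its probe sets divided at 6 h. Probe set 213373_s_at had log2 values of 0.25, 0.16, -0.16 and -0.41 at 0, 2, 6 and 12 h, and 207686_s_at had 0.28, 0.01, -0.18 and -0.01. The third, 1553306_at, had 0.04, -0.11, 0.23 and -0.04. The first 2 were highest at 0 h and the third at 6 h. The gene's log2 ratio was -0.15 at 2 h (SD 0.09), -0.41 at 6 h (SD 0.36) and -0.29 at 12 h over 0 h (SD 0.29 over 3 probe sets). All 3 probe sets were below 0 at 2 h and at 12 h, and 2 of 3 at 6 h, where 4.10% of genes had a lower ratio than CASP8. Probe set 1553306_at, the only one not named as matching several transcripts, gave 0.19 at 6 h over 0 h and 0.34 at 6 h over 2 h.

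CFLAR, which encodes the long and short forms of FLIP, lies in a row with CASP10 and CASP8 on chromosome 2 in the RefSeq annotation. As a gene it had the narrowest range of the 10, 0.11 on the log2 scale. Its log2 ratio was 0.08 at 2 h (SD 0.20), -0.01 at 6 h (SD 0.46) and 0.03 at 12 h over 0 h (SD 0.44 over 14 probe sets), with 9, 7 and 7 of the 14 above 0. The SD at 6 h came mostly from 1 probe set. Without it the SD over 13 was 0.11 and the ratios ran from -0.18 to 0.13.

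That probe set, 239629_at, had log2 values of 0.71, 0.61, -0.97 and -0.61 at 0, 2, 6 and 12 h. The 0 h and 2 h arrays were high and the 6 h and 12 h arrays low, with a gap of 1.22 between the pairs. In 3 other CFLAR probe sets both early arrays also lay above both late ones, by at most 0.12. Its log2 ratio was -0.10 at 2 h, -1.67 at 6 h and -1.32 at 12 h over 0 h, which is 3.19-fold and 2.49-fold lower at the later times. Over all probe sets with 1 symbol, 0.937% were past 2-fold lower at 6 h and 1.57% at 12 h. Its range of 1.67 compares with 0.59 for the next widest probe set, 235427_at, and 0.11 for the narrowest. Probe set 235427_at went the other way at 12 h, with log2 values of -0.04, -0.07, 0.04 and 0.52 at 0, 2, 6 and 12 h. Which CFLAR transcripts each probe set matches was not analysed here, and both were singled out after their values were seen.

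**Figure D3:**
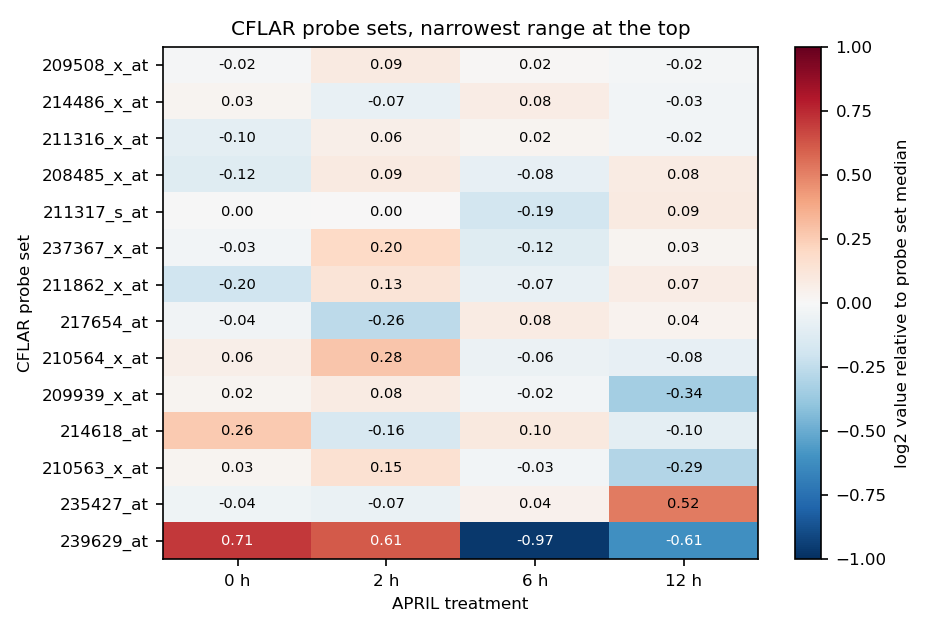
Log2 value of the 14 CFLAR probe sets (rows, narrowest range at the top) on the 0, 2, 6 and 12 h arrays (columns), coloured and printed relative to each probe set's median. Probe set 239629_at, at the bottom, goes to -0.97 at 6 h while the others stay between -0.19 and 0.10 there.

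In the order of the 12 h over 0 h log2 ratios, TNFRSF12A (1.42) was followed by TNFRSF10D (0.68), TNFRSF1A (0.65), TNFRSF10B (0.54), TNFRSF10A (0.52), FADD (0.29), CFLAR (0.03), FAS (-0.15), CASP8 (-0.29) and TNFSF10 (-1.57). The gap from TNFRSF12A to TNFRSF10D was 0.74, a little over the SD of 0.72 between the TNFRSF10D probe sets. TNFRSF10D, TNFRSF1A, TNFRSF10B and TNFRSF10A lay within 0.16 of one another, less than the spread of the probe sets of each of those read by more than 1, so their order is not settled. CFLAR, FAS and CASP8 likewise overlapped in their probe set ranges. CASP8 and TNFSF10 were 1.28 apart and their probe sets did not overlap.

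For the gene values of the 10, the successive steps place the wide differences late. Among single probe sets, 239629_at of CFLAR had its wide step earlier, with -1.58 at 6 h over 2 h and 0.36 at 12 h over 6 h. At 6 h over 2 h no gene of the 10 was past 2-fold or 1.5-fold (of all genes, 0.116% were higher and 0.329% lower by 2-fold, and 1.57% and 2.07% by 1.5-fold). The ratios of 8 of 10 were below 0, from -0.42 for TNFRSF12A to -0.0015 for TNFRSF10B, beside a median of 0.04 for all genes. Of all genes, 42.5% had a lower ratio than TNFRSF10B. At 12 h over 6 h TNFRSF12A was past 2-fold higher and TNFSF10 past 2-fold lower, against 0.799% and 0.885% of all genes, and no other gene of the 10 passed 1.5-fold (3.51% and 3.4% of all genes did). The other 12 h over 6 h ratios lay between -0.43 for FAS (SD 0.36 over 5 probe sets) and 0.50 for TNFRSF10A. These steps share arrays with the comparisons over 0 h.

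Centring on the bacterial RNAs adds the same amount to every 12 h over 0 h ratio, and 8 of the 10 genes kept their sign. With it, TNFSF10 was at -1.22 and TNFRSF12A at 1.77 at 12 h over 0 h, and TNFRSF10D (1.03) and TNFRSF1A (1.01) joined those past 2-fold higher. The signs of FAS, at 0.20, and CASP8, at 0.07, which lay near 0, turned from below to above. Over all genes the same centring put 694 genes past 2-fold upward and 76 downward, where the deposited scaling gave 187 and 195. The split of the 10 genes at 1.5-fold became 6 above and 1 below, where it had been 3 and 1, while the shares of all genes became 19.3% and 1.16%, where they had been 4.46% and 3.7%.

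Other genes of the death receptor pathway were listed by role, 40 in all, of which 33 could be read. The rest are not analysed here. At 12 h over 0 h, 3 of the 33 were past 1.5-fold higher and 1 lower, against 4.46% and 3.7% of all genes, and 1 was past 2-fold, CASP6, on the lower side (0.986% of all genes). Their median was 0.04, beside 0.01 for all genes, with 19 above 0 and 12 below. At 2 h none was past 1.5-fold, and at 6 h 1 was higher and 1 lower, against 1.15% and 1.64% of all genes.

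Among death ligands, all 5 read were below 0 at 12 h, between -0.22 and -0.01, and none reached 1.5-fold. Their median was -0.16, beside 0.01 for all genes. Centred on the bacterial RNAs, which raises every 12 h ratio alike by more than these values, they lay above 0. LTA, a lymphotoxin, had gene values of 0.02, -0.06, 0.27 and -0.02 at 0, 2, 6 and 12 h, and TNF had 0.06, 0.14, -0.06 and -0.16. The low 12 h value of TNFSF10 had no counterpart of its size in the list, and Fas ligand (FASLG) was at -0.16 (SD 0.02 over 2 probe sets).

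Of 7 other death and decoy receptors, TNFRSF21 (DR6), which has a death domain, was the only one past 1.5-fold. Its gene values were -0.06, 0.06, -0.73 and 0.73 at 0, 2, 6 and 12 h, low at 6 h and high at 12 h. Its log2 ratio was -0.67 at 6 h and 0.79 at 12 h over 0 h (SD 0.12 over 2 probe sets), and 1.46 at 12 h over 6 h, where TNFRSF12A also had 1.46. TNFRSF25 (DR3) was at 0.36 at 12 h (SD 0.28), with all 5 probe sets above 0. The median of the 7 was 0.08.

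The adaptors and kinases had a median of 0.22 at 12 h over 8 genes. DEDD2, a protein with a death effector domain, had gene values of -0.35, -0.37, 0.56 and 0.35 at 0, 2, 6 and 12 h, high at both later times, with ratios of 0.91 at 6 h and 0.69 at 12 h over 0 h from 1 probe set. PEA15, which binds FADD and caspase-8 through its death effector domain, had ratios of 0.34 at 6 h and 0.54 at 12 h (SD 0.14 over 2 probe sets). TRADD was at 0.00 at 12 h (SD 0.12 over 3 probe sets).

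Of the caspases and BID, 4 genes could be read, and CASP6, an executioner caspase, was past 2-fold lower at 12 h. Its gene values were 0.17, 0.02, -0.02 and -0.96 at 0, 2, 6 and 12 h, and the ratio at 12 h over 0 h was -1.13 (SD 0.09 over 2 probe sets). BID, the link to mitochondria, was at 0.42 (SD 0.11, 3 of 3 probe sets above 0), and the initiators CASP9 and CASP10 were at 0.04 and -0.05. Among 9 inhibitors and their antagonists, 8 were above 0 at 12 h, with a median of 0.12 beside 0.01 for all genes. HTRA2, a mitochondrial protease that counters XIAP, was at 0.66 (SD 0.09 over 2 probe sets), and RNF31, a ubiquitin ligase of the TNF receptor complex, had 0.29 at 6 h and -0.10 at 12 h over 0 h.

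**Figure D4:**
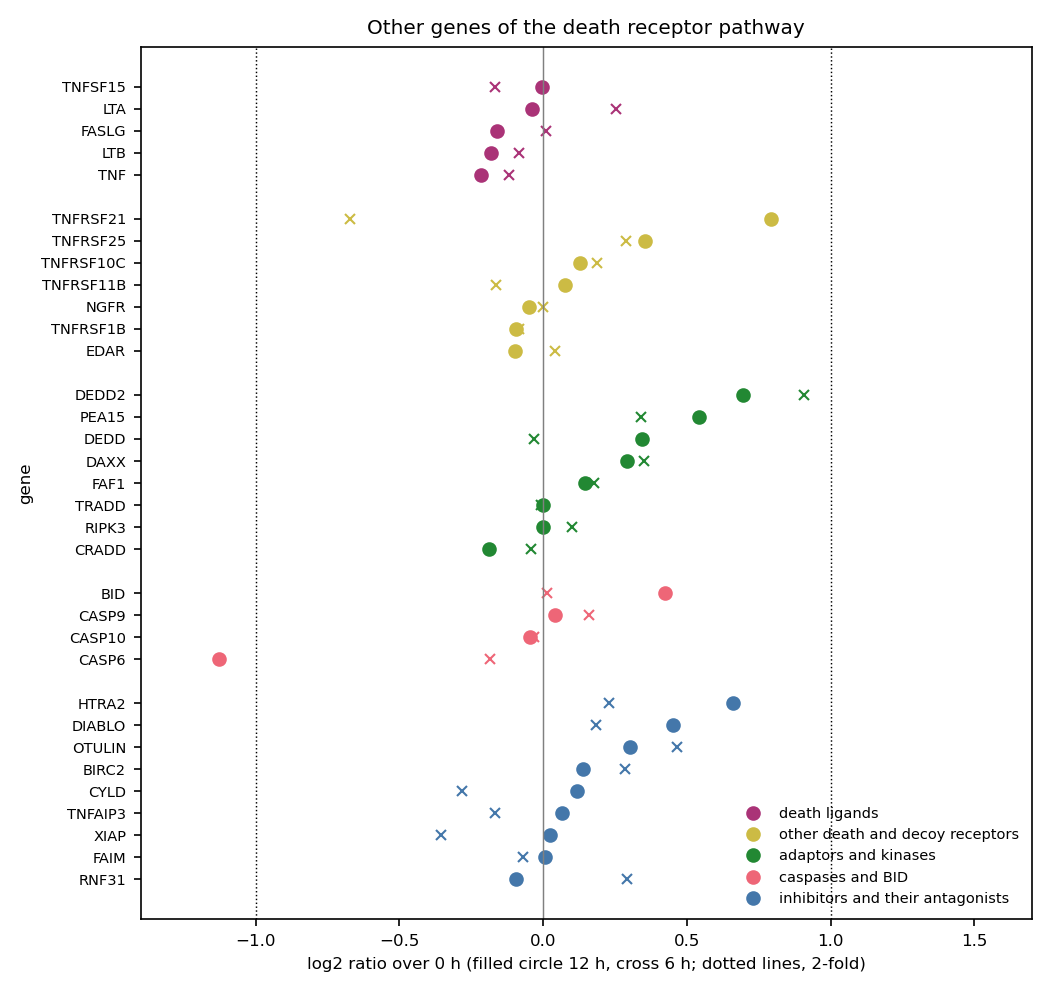
Log2 ratio over 0 h (x axis) at 12 h (filled circles) and 6 h (crosses) for the 33 other genes of the pathway (rows), coloured by list; dotted lines mark 2-fold. CASP6 is the only gene past 2-fold, at -1.13 at 12 h, and TNFRSF21 lies at -0.67 at 6 h and 0.79 at 12 h.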

How the data were processed

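HepG2 RNA from 4 arrays (0, 2, 6 and 12 h of APRIL) was analysed, 1 array per time. The deposited log2 values came from RMA per the submitters' processing notes, which give no version. In them the median of each of 54675 probe sets over the 4 arrays is 0 within 1e-06. What centred them, the log base and the direction are not given in the sources used here, so base 2 and higher as more transcript are assumptions. The medians of the 4 columns were -0.0050, 0.0000, 0.0113 and -0.0043 at 0, 2, 6 and 12 h.

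Probe sets with exactly 1 gene symbol in the platform annotation were used, with symbols updated through the gene identifier to RefSeq (GRCh38.p14). Log2 ratios between arrays were taken per probe set and the median over probe sets per gene, in Python 3.11.15 with numpy 2.4.6 and pandas 2.3.3. Counts used 2-fold and 1.5-fold. The computation was tested on simulated data. Without replicates no test was made, and the number of arrays limits the precision.

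The members and lists were chosen with earlier results of these data known. Named were all 10 members, the 2 genes of each list with the widest range over the arrays and the 3 genes closest to the member of widest range. Genes named beyond these, such as FASLG, TRADD, CASP9, CASP10, TNFRSF10C and the marker PDGFRB, were chosen after their values were seen. The motif letters were settled after a first search of the promoters.

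Alternatives were the mean over probe sets, the probe set of widest range, dropping the _x_at, _s_at and _a_at probe sets, which can match several transcripts, 2 other centrings, the mean of the other 3 arrays as reference and thresholds of 1.5-fold and 3-fold.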

Additional observations from a re-analysis of the deposited data

How the results depend on the processing

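The alternatives gave 270 values of single genes. Of these, 213 differed from the reported ratio by less than the robust SD of all genes and 57 by more. The 213 include values that could not differ, since FADD, TNFRSF1A and TNFRSF12A have 1 probe set each. For these genes the mean and the widest probe set repeat the reported ratio. The call of TNFRSF12A was therefore not checked by any choice of probe set. No gene past 2-fold changed sign. Some smaller ratios did. Without probe sets that can match several transcripts, FAS at 12 h over 0 h went from -0.15 to 0.41 and CASP8 at 6 h over 0 h from -0.41 to 0.19. All ratios of single genes stayed within that SD with the mean over probe sets or with each array centred on its median. The array medians lay between -0.0050 and 0.0113, so centring on them could move no ratio far. For genes with 1 or 2 probe sets the mean equals the median. The number of the 10 genes past 2-fold at 12 h over 0 h, 2 in the report, was 5 with the probe set of widest range (3 higher and 2 lower, CFLAR among the latter), 4 with spike-in centring, 4 at 1.5-fold and 0 at 3-fold. The share of all genes past the same limit, 1.93% in the report, was 5.16%, 3.89%, 8.15% and 0.359% under these choices, so the counts of all genes moved with them. It was 1 of 8 without probe sets that can match several transcripts, where TNFRSF12A and TNFRSF1A have no value, and 2.16% of all genes were past 2-fold. At 12 h over 6 h that count, also 2, was 1 without these probe sets (1.59% of all genes) and 1 at 3-fold (0.314%), beside 1.68% in the report. With the probe set of widest range it was 1 in place of 0 both at 6 h over 0 h and at 6 h over 2 h, through CFLAR, where the shares of all genes were 2.09% and 2.32% in place of 0.384% and 0.445%. The median of the 10 genes was 0.75 at 12 h over 0 h and 0.71 at 12 h over 6 h with spike-in centring, in place of 0.40 and 0.28, by the shift that this centring adds. It was -0.10 at 6 h against the mean of the other 3 arrays, in place of 0.13, and 0.19 at 6 h over 2 h without probe sets that can match several transcripts, in place of -0.09. The mean of the other 3 arrays was used only in comparisons over 0 h. No paired analysis was possible because each time has 1 array.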
